A study of Homo sapiens with 2 samples.

Results

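The receptor tyrosine kinases MET, MST1R, AXL, TYRO3, MERTK and DDR2 and the ligands HGF, GAS6 and PROS1 were examined in HCC4006 and HCC4006ER cells. All probe sets whose annotation gives one of these gene symbols alone were taken, which gave 24 probe sets for 9 genes, of 41097 such probe sets for 19775 genes on the array. DDR1, the tenth gene of the list, had no probe set with its symbol alone and was not analysed as a gene. HCC4006 is an erlotinib-sensitive human NSCLC line with a deletion in exon 19 of EGFR. HCC4006ER is its erlotinib-resistant derivative, a bulk population selected by rising concentrations of erlotinib, which carries the same deletion and is labelled as having an EMT phenotype. Cells of both lines were cultured without further treatment for 48 hours in RPMI with 10% FBS, and the RNA preparations of each line were mixed equally before they were hybridized to 1 Affymetrix array per line. There is therefore no replicate and no test, and every difference is a value that describes these 2 arrays, each named here for the line its label gives. ZEB1 and ZEB2, drivers of EMT, were not well above background on either array, and CDH1 (E-cadherin) was nearly equal, with a log2 fold of 0.08. These values go against the EMT phenotype in the label of HCC4006ER. The mesenchymal markers VIM, CDH2 and FN1 go with it, at 1.53-fold, 2.05-fold and 1.66-fold higher on the HCC4006ER array. VIM was above background in 1 of its 2 probe sets. EPCAM, CDH1, KRT8 and KRT18 were higher on the HCC4006ER array (log2 folds 0.07, 0.08, 0.43 and 0.03) and KRT19 was lower (-0.37). None of these 5 epithelial markers passed 1.5-fold. The markers are thus mixed, with mesenchymal markers higher and no epithelial marker lower past 1.5-fold. Which RNA each array holds rests on its label alone, so every direction below is that of the array so labelled and is not shown to be that of resistant over parental cells.

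Erlotinib blocks the kinase activity of EGFR, and other receptor tyrosine kinases can keep the PI3K-AKT and RAS-ERK routes active in its place, which is known as bypass signaling. MET is the receptor for hepatocyte growth factor (HGF), and its relative MST1R, also called RON, is the receptor for macrophage-stimulating protein. AXL, TYRO3 and MERTK form the TAM family, whose ligands GAS6 and protein S (the product of PROS1) depend on vitamin K and bridge the receptors to phosphatidylserine on membranes. DDR1 and DDR2 are receptors for collagen. Amplification of MET and activation of AXL are known routes of resistance to EGFR-TKIs in NSCLC, and the study examined MET and other receptor kinases in the resistant cells.

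MET, AXL and GAS6 had signals far above background on both arrays and differed by less than 1.5-fold between arrays in the probe sets used for the genes, although a further AXL probe set was 1.83-fold higher on the HCC4006ER array. MST1R was the member with the largest difference, 2.13-fold lower on the HCC4006ER array, and MERTK was 1.57-fold higher. HGF and DDR2 were near or under the background level. In MAS5 signal, of the 9 genes, 8 were above background on at least one array, of which 1 was higher past 1.5-fold, 1 was lower and 6 did not pass it, HGF by a lower bound only. Among all 11896 genes above background, 7.99% were higher past 1.5-fold, 11.2% were lower and 19.1% passed in either direction, so the 2 of 8 members past the threshold were close to the share of genes in general. With the array medians made equal these shares were 12.4% higher and 7.4% lower, and the members past the threshold were again MERTK and MST1R. The level taken as background was the 95th percentile of the signals of 127 probe sets for smell and bitter taste receptors, 96.2 on the HCC4006 array and 91.6 on the HCC4006ER array. Where the dim side lay under its level the fold was computed against the level and is a lower bound, and genes with both sides under it have no fold.

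The promoters of MST1R and MERTK are shown because these were the members past 1.5-fold, in opposite directions. Each sequence holds the 250 bases before the gene's start from RefSeq (GRCh38.p14), 5′ to 3′ on the gene's strand, with chr3:49903874-49904123 on the minus strand for MST1R and chr2:111898357-111898606 on the plus strand for MERTK. Capitals mark matches to the E-box CACCTG, which SNAI and ZEB repressors are known to bind, to the AP-1 site TGACTCA and to the GC box GGGCGG, searched on both strands.
MST1R: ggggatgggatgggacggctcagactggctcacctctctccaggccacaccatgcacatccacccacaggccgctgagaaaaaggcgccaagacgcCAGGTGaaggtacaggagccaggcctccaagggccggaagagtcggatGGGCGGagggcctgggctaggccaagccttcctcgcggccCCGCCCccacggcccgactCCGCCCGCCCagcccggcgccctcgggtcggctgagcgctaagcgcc
MERTK: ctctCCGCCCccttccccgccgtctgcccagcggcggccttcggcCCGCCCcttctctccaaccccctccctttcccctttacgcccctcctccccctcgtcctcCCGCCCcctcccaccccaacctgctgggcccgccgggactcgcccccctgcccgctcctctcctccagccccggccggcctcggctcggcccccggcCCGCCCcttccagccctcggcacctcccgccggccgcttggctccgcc
MST1R had 1 E-box and 4 GC boxes, a pair of them overlapping, and MERTK had 4 GC boxes and no E-box. Neither had the AP-1 site. The bases were 70.8% G or C in MST1R and 78.8% in MERTK. Of 35116 promoter windows of the same length, 17.5% held the E-box, 4.20% the AP-1 site and 42.6% the GC box. Among the other listed genes, GAS6, the first of the AXL starts and some of the DDR1 starts also had 1 E-box each. MET, PROS1, HGF, TYRO3 and DDR2 had none. These are matches of letters and do not show that a factor binds.

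Among the control probe sets, the bacterial and phage transcripts added to each array had ratios of 0.959 to 1.43 over 18 probe sets, and the 3′ to 5′ ratio of the ACTB control was 1.09 on both arrays. Epithelial markers were above background on both arrays for 5 of 5 genes, and none passed 1.5-fold. The lung markers NKX2-1, NAPSA and SFTPB read 138 or less on both arrays, with 1 of 3 above background on each. VIM, CDH2 and FN1 were 1.53-fold, 2.05-fold and 1.66-fold higher on the HCC4006ER array. HGF, GAS6, AXL and MERTK are also expressed by fibroblasts, macrophages and endothelial cells. Of 9 fibroblast markers, 2 were above background on the HCC4006 array and 1 on the other, with summed signals of 1050 and 1210, and DCN, LUM, COL1A2, COL3A1, PDGFRA, PDGFRB and FAP were not well above background. Of 5 macrophage markers measured, CSF1R alone was above background (summed signals 458 and 370), and of 5 endothelial markers PECAM1 alone (280 and 293). In pooled RNA, fewer cells that express a gene and less RNA per cell cannot be told apart.

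MET was measured by 4 probe sets, and all were above background on both arrays. The gene's value is taken from 203510_at, which was the brightest over both arrays and read 7107 on the HCC4006 array and 8504 on the HCC4006ER array. The others read 2783 and 3176, 2485 and 3130, and 1339 and 1998, in the same order of arrays. All 4 were higher on the HCC4006ER array, with log2 folds of 0.19 to 0.58, and none reached 1.5-fold. The largest, 213816_s_at, was 1.49-fold higher. The gene's value of 1.20-fold (log2 fold 0.26) lay within 0.27. This is the SD of single probe sets about the mean log2 fold of their gene, pooled over 5264 genes. Variation between cultures or repeated arrays is not part of this SD. Of the 750 genes above background whose mean log2 signal lay within 0.5 of that of MET, 13.7% were at least as much higher on the HCC4006ER array.

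HGF, the ligand of MET, had 5 probe sets, and 4 of them were not well above background on either array, with signals of 1.30 to 6.51 on the HCC4006 array and 1.38 to 4.59 on the HCC4006ER array. The remaining probe set, 209961_s_at, read 101 on the HCC4006 array, just over the background level, and 68.1 on the HCC4006ER array, under it. HGF was thereby at least 1.11-fold lower there (measured log2 fold -0.57), a bound that does not settle whether it passed 1.5-fold. With the background level at the 99th percentile of the receptor probe sets HGF lay under it on both.

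MST1R had 1 probe set, 205455_at, which read 1029 on the HCC4006 array and 483 on the HCC4006ER array. Both signals were well above the background levels, by 10.7 and 5.28 times. The gene was 2.13-fold lower on the HCC4006ER array (log2 fold -1.09). Among 2061 genes of like signal, 2.52% were at least as much lower. With a single probe set there is no second reading of the gene on these arrays. MST1, the gene of its ligand, read 121 and 137 and was above background on both arrays, within 1.5-fold.

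**Figure D1:**
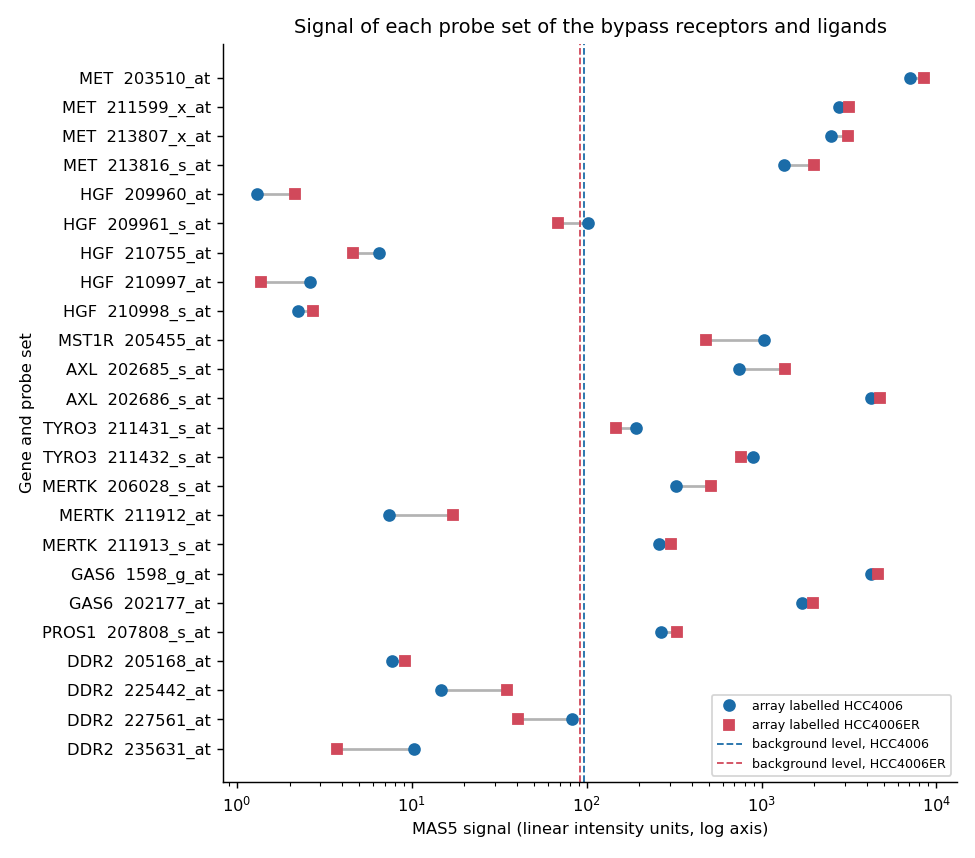
MAS5 signal on a log axis for each of the 24 probe sets, drawn as a circle (HCC4006 array) and a square (HCC4006ER array); the dashed lines stand at 96.2 and 91.6, the background of each array. All MET, AXL and GAS6 probe sets lie to the right of both lines and all DDR2 probe sets to the left; levels of different probe sets are not comparable with each other.

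AXL was measured by 2 probe sets that differed in the size of the change. Probe set 202686_s_at read 4209 on the HCC4006 array and 4753 on the HCC4006ER array, a log2 fold of 0.18. Probe set 202685_s_at read 742 and 1356, which was 1.83-fold higher on the HCC4006ER array (log2 fold 0.87). Both were higher on that array, and their log2 folds lay 0.69 apart. The SD of 0.27 describes single probe sets about the mean of their gene and is not that of a gap between 2. The gene's value of 1.13-fold, from the brighter probe set, was matched or exceeded in the same direction by 26.6% of 1209 genes of like signal. The mean of both probe sets was 1.44-fold higher.

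TYRO3 was lower on the HCC4006ER array in both of its probe sets. Probe set 211432_s_at read 897 and 760 (log2 fold -0.24), and 211431_s_at read 191 and 148 (log2 fold -0.37). Neither reached 1.5-fold. TYRO3 has a near-identical pseudogene, TYRO3P, and whether these probe sets also detect its transcripts was not tested.

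MERTK had 3 probe sets, of which 211912_at lay under background on both arrays. Probe set 206028_s_at read 326 on the HCC4006 array and 512 on the HCC4006ER array, 1.57-fold higher on the latter. Probe set 211913_s_at read 260 and 305, a log2 fold of 0.23. Both were higher on the HCC4006ER array, while their mean, 1.36-fold, did not pass 1.5-fold. Both are of the type (_s_at) that can match several transcripts, and without such probe sets MERTK was not above background. Of 1842 genes of like signal, 7.76% were at least as much higher as 206028_s_at. The gene values of AXL (log2 fold 0.18) and TYRO3 (-0.24) did not pass 1.5-fold and lay within the SD of 0.27. By the brightest probe set MERTK was thus the 1 TAM receptor past 1.5-fold. The other AXL probe set, at 1.83-fold, was also past it. As the mean over probe sets above background, AXL (0.52) lay higher than MERTK (0.44), and neither passed 1.5-fold.

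GAS6, the ligand that binds all TAM receptors, was bright and nearly equal. Its probe sets read 4250 and 4622 (log2 fold 0.12) and 1707 and 1963 (log2 fold 0.20). PROS1, which encodes protein S, a ligand of TYRO3 and MERTK, had 1 probe set at 265 on the HCC4006 array and 331 on the HCC4006ER array, a log2 fold of 0.32. Neither ligand reached 1.5-fold. Transcripts of GAS6 and of its receptors AXL, TYRO3 and MERTK were thus above background on both arrays, whereas MET was above background without HGF well above it.

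All 4 DDR2 probe sets lay under background on both arrays. They read 7.74 to 82.1 on the HCC4006 array and 3.72 to 40.3 on the HCC4006ER array. No fold is given.

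**Figure D2:**
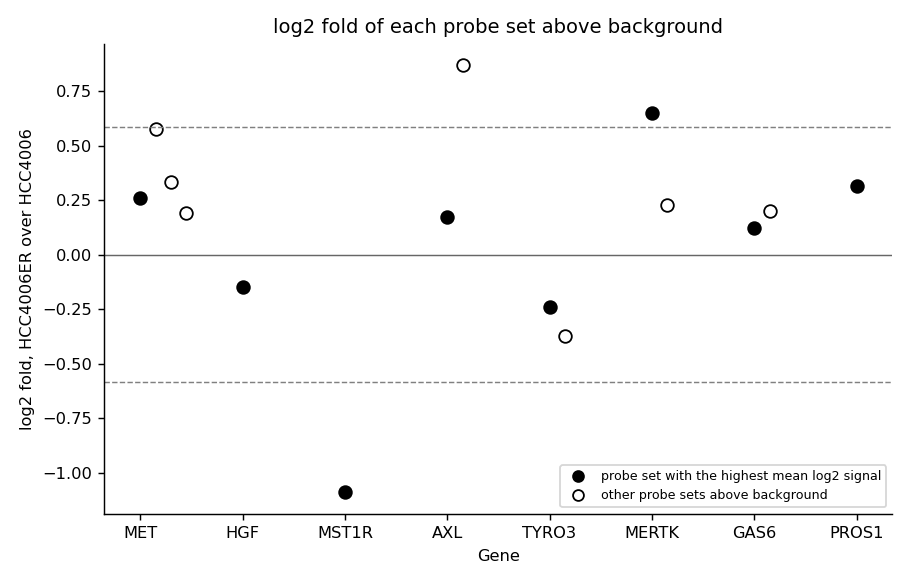
Log2 fold (HCC4006ER array over HCC4006 array) of the 15 probe sets above background on at least one array; filled circles are the probe set used for each gene, open circles the others, dashed lines mark 1.5-fold, and the HGF point is a bound. All 4 MET points lie above 0, MST1R stands alone at -1.09, and the AXL points lie 0.69 apart.

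Over all members, 15 of 24 probe sets were above background on at least one array. Of these 11 were higher and 4 were lower on the HCC4006ER array, and past 1.5-fold 2 were higher and 1 was lower. Over all 21895 probe sets above background with a single symbol, 9.25% were higher past 1.5-fold and 10.1% were lower. The median log2 fold of the 8 genes above background was 0.15, and that of all genes above background was -0.04. By gene, 5 of the 8 were higher and 3 were lower, where 45.6% of all such genes were higher and 54.4% were lower. Scaling the arrays to equal medians, which moved log2 folds up by 0.14, left the directions of these 8 genes as they were, with a median of 0.28.

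The members were then set beside the rest of the receptor tyrosine kinase family. Of 49 other receptor tyrosine kinases measured, 25 were above background, and 3 of these were higher past 1.5-fold, 4 were lower and 18 did not pass it, with a median log2 fold of 0.00. Of the 5 members above background that are receptors, 1 was higher, 1 was lower and 3 did not pass it, with a median of 0.18. In either direction 28% of the 25 others and 40% of these 5 passed, beside 19.1% of all genes above background. LMTK2 was the highest of the family at 2.07-fold, in the 1 of its 3 probe sets above background. FGFR2 followed at 1.72-fold, although FGFR2 probe sets above background ran from a log2 fold of -0.67 to 0.78. FGFR1 was the other one higher, with 6 probe sets above background from -0.06 to 0.64 and a mean over all of its probe sets of 0.18, which does not pass. EPHA1, an Eph receptor of epithelia, was the lowest at 2.17-fold lower, next to MST1R, also in 1 of 3 probe sets. The mean over every probe set was 0.49 for LMTK2 and -0.52 for EPHA1, which do not pass. EPHB3, RET and EPHB6 were the others lower. With the array medians made equal, 5 of all 30 were higher past 1.5-fold and 2 were lower, in place of 4 and 5, and with the mean over every probe set of a gene 2 were higher and 9 lower. FGFR1 and the last 3 of those lower were named after their values were seen. EGFR, the target of erlotinib, read 5025 on the HCC4006 array and 4078 on the HCC4006ER array, and its 6 probe sets above background were all lower, with log2 folds of -0.71 to -0.30. ERBB2 lay within 1.5-fold in the probe set used, with a log2 fold of -0.01. ERBB3 had a log2 fold of 0.12 in its brightest probe set, while its 3 probe sets above background reached up to 1.01, past 1.5-fold.

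**Figure D3:**
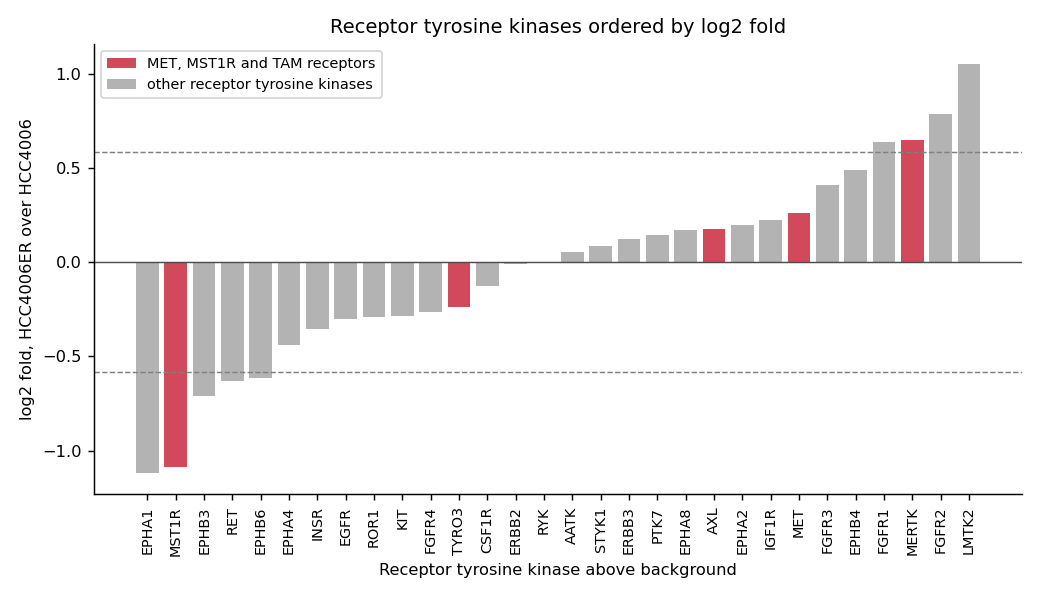
Log2 fold (HCC4006ER array over HCC4006 array) of the 30 receptor tyrosine kinases above background, in order; red bars are MET, MST1R and the TAM receptors, gray bars the other members of the family, dashed lines mark 1.5-fold, and the INSR and FGFR4 bars are lower bounds. MST1R is the second lowest, MERTK the third highest, and MET, AXL and TYRO3 lie within the dashed lines.

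Because amplification takes in genes beside MET or AXL, the 5 nearest protein-coding genes on each side, by their order in RefSeq, were read as well. Of the 10 genes beside MET on chromosome 7, 9 were measured and 5 were above background. CAV1 and CAV2, the caveolin genes next to MET, had log2 folds of 0.18 and 0.19, CAPZA2 on the other side -0.05, TES -0.02 and MDFIC -0.48. None passed 1.5-fold. Of the 10 genes beside AXL on chromosome 19, 9 were measured and 5 were above background, with log2 folds of -0.02 to 0.17. The highest was TGFB1, and the nearest, CYP2S1 and HNRNPUL1, were at -0.01 and -0.02. RNA signals do not measure gene copies, and gene copy number was not analysed here.

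**Figure D4:**
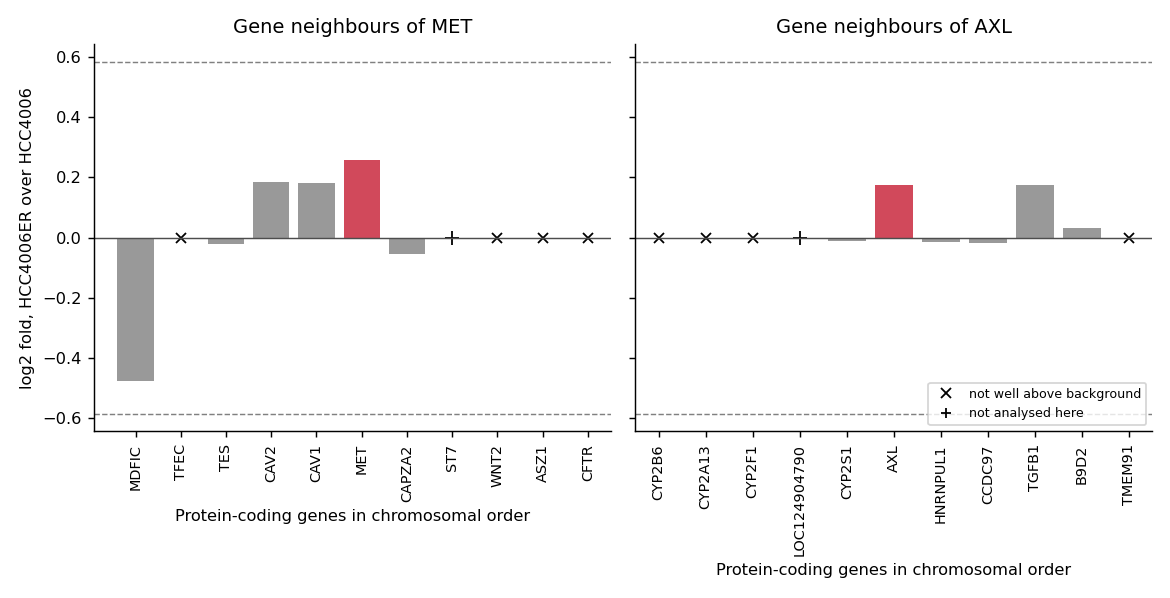
Log2 fold (HCC4006ER array over HCC4006 array) of MET (left, red), AXL (right, red) and the 5 protein-coding genes on each side in chromosomal order; crosses mark genes not well above background, plus signs genes not analysed here, dashed lines 1.5-fold. No gene of either segment passes a dashed line.

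Genes that act with MET and MST1R showed no common direction. Of 26 list genes above background, 2 were higher past 1.5-fold, 2 were lower and 22 did not pass it, with a median log2 fold of 0.09. These counts were 3 and 1 with the array medians made equal, 1 and 5 with the mean over every probe set of a gene, and 0 and 3 with the mean over probe sets above background. By the brightest probe set 15.4% of the 26 passed in either direction, beside 19.1% of all genes above background. CBL, the ubiquitin ligase that takes activated MET from the membrane, was 1.96-fold higher in its brightest probe set (749 and 1469). Its 5 probe sets ran from -0.07 to 1.01. Their mean fell just short of 1.5-fold with dim signals raised to background (0.58) and passed it as measured (0.63). The phosphatase PTPN1 was 1.51-fold higher, which did not pass under quantile normalization (log2 fold 0.58) or as the mean of its probe sets above background (0.40), and its direction turned over all probe sets (-0.053). The adaptor SHC1 was 1.55-fold lower with both of its probe sets lower, but did not pass with the array medians made equal (-0.49). The co-receptor NRP2 was 1.83-fold lower, with 7 of 7 probe sets above background lower. CD44, whose splice variants act as MET co-receptors, lay within 1.5-fold in its brightest probe set (log2 fold -0.32), but all 12 of its probe sets above background were lower, down to -1.60. GAB1, the docking protein of MET, read 313 and 397, a log2 fold of 0.34.

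In the TAM route, which held vitamin K enzymes, sheddases and partners of phosphatidylserine binding, 1 of 18 genes above background passed 1.5-fold. That gene was ITGAV, the integrin alpha V subunit, at 2156 and 3646, 1.69-fold higher on the HCC4006ER array. The sheddase ADAM10, which cleaves AXL and DDR1, had a log2 fold of -0.09. The median of the list was -0.05. Of its genes above background 5.56% passed 1.5-fold, beside 19.1% of all genes above background.

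Among DDR ligands and partners, 9 of 22 genes above background were higher past 1.5-fold and 1 was lower. Of all genes above background, 7.99% were higher past 1.5-fold and 11.2% were lower, or 12.4% and 7.4% with the array medians made equal. The median log2 fold of the list was 0.43, beside -0.04 for all genes above background. COL8A1 was 9.67-fold higher on the HCC4006ER array in its brighter probe set, with a log2 fold of 1.37 in the other above background. COL4A5 was 3.90-fold higher, in the 1 of its 2 probe sets above background. COL5A1 was 2.37-fold higher, with probe sets above background from a log2 fold of 0.24 to 1.51. COL11A1 was at least 2.17-fold higher. That bound depends on the background level, and with the 99th percentile it was a log2 fold of 0.55, which does not pass. The others higher were COL1A1, COL4A1, MYH9, PARD3 and PARD6A, and the 1 lower was SHC1, which the MET list also holds; apart from SHC1 these were named after their values were seen. COL1A1 probe sets above background ran from -0.18 to 0.71, and over all of its probe sets the direction turned (-0.19). As the mean of probe sets above background, COL1A1 (0.16), COL4A1 (0.51) and PARD3 (0.43) did not pass. Collagens were the subject of earlier readings of these arrays, so this count is no independent evidence of their direction. The receptor DDR2 remained not well above background on the same array. The 4 probe sets that list DDR1 together with MIR4640 were left out of all counts. They read 3568 to 4642 on the HCC4006 array and 4155 to 5306 on the HCC4006ER array.

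Among shared downstream genes, 16 were measured and above background, of which 2 were higher and 2 were lower past 1.5-fold. PIK3CD, a catalytic subunit of PI3K best known in white blood cells, was 2.99-fold higher (217 and 647) and MTOR 2.26-fold higher, each in the 1 probe set above background. MAPK3, which encodes ERK1, was 2.48-fold lower (784 and 316) and AKT1 1.59-fold lower, each in its 1 probe set. With the array medians made equal AKT1 did not pass (log2 fold -0.53), which left 1 lower. The median log2 fold of the list was -0.08. By the brightest probe set 25% of the 16 passed 1.5-fold, beside 19.1% of all genes above background.

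**Figure D5:**
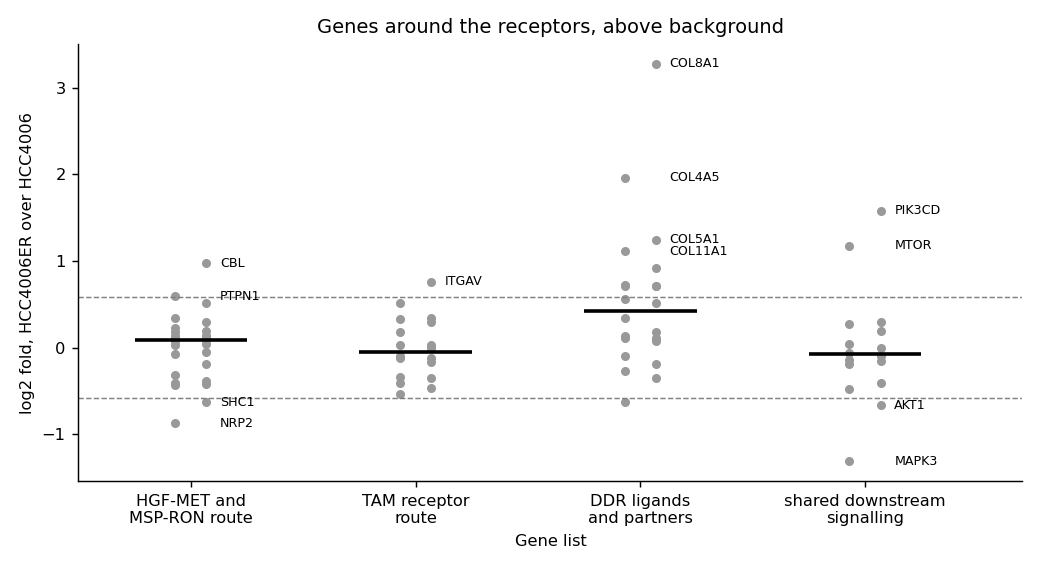
Log2 fold (HCC4006ER array over HCC4006 array) of the genes above background in 4 lists; each point is 1 gene, the black bar the median of the list and the dashed lines 1.5-fold, with up to 4 genes past it named per list; HPN, SOCS1 and COL11A1 are lower bounds. The DDR list has its median at 0.43, and the medians of the other lists lie between -0.08 and 0.09.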

How the data were processed

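Total RNA of HCC4006 and HCC4006ER cells was hybridized to 1 Affymetrix HG-U133 array each, after RNA preparations of each line had been mixed equally. The labels give 100 ng of RNA for labelling. The deposited intensity of each probe set is a linear MAS5 signal computed by the authors, without detection calls, and GCOS 1.4 is named in the submitters' processing notes; aligners and genome builds do not apply. Without the extreme 2% at each end the mean was 499.9 on both arrays, and the medians over 54675 probe sets were 63.4 for HCC4006 and 57.7 for HCC4006ER. The number of arrays, 1 per cell line, limits the precision of every value.

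Gene names came from the platform annotation: 41097 probe sets had 1 symbol, 1801 had several and 11777 were not listed. Of the first, 41043 matched a gene identifier in RefSeq (GRCh38.p14), and their symbols were updated. For genes with several probe sets the brightest by mean log2 signal was used, and log2 folds are HCC4006ER over HCC4006, with a threshold of 1.5-fold from the study's methods. No p-value was computed. The named genes were all members with every probe set, up to 4 genes with the largest fold past 1.5-fold per list, 6 receptors or partners fixed by name and the gene neighbours of MET and AXL; DCN, LUM and other markers were named as marker lists. The members and lists were chosen with earlier results of these data known. The gene step was tested on simulated data. Alternatives were the scaling, the probe set per gene, the treatment of dim signals, the background level, the filter and the threshold. Some listed genes were not analysed here. Python 3.11.15 with numpy 2.4.6, pandas 2.3.3 and matplotlib 3.10.9 was used.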

Additional observations from a re-analysis of the deposited data

How the results depend on the processing

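MST1R was the 1 member lower past 1.5-fold under all 12 alternatives, with a log2 fold of -1.09 to -0.95. Most of these could not alter its value, since it has 1 probe set, well above background on both arrays. Only the scaling changed the value, to -0.95 with equal medians and -1.08 with quantile normalization. The count of members higher past 1.5-fold was 1 as reported (MERTK). It was 0 with the 2-fold threshold, 0 with probe sets without _x_at and _s_at, where MERTK was not above background, and 0 with the mean over probe sets above background, an alternative chosen after seeing the data. Taking for each gene its most changed probe set, the count was again 1, but that gene was AXL. For MERTK that choice fell on 211912_at, which read 7.40 and 17.1, under background on both arrays. MERTK was thus not among the 6 members above background in that setting. Without _x_at and _s_at probe sets 3 members were above background in place of 8, since AXL, TYRO3 and PROS1 have no other probe set and those of HGF and MERTK were dim. The median log2 fold of the members ran from 0.12 to 0.28 over 11 alternatives. MET was higher under 11 of 11 alternatives and past 1.5-fold under none, with log2 folds of 0.26 to 0.58. The background level and the treatment of dim signals could not alter its value, since its 4 probe sets were far above background. No choice among these probe sets could turn its direction, since all 4 were higher. AXL ran from 0.16 to 0.87. For other genes the direction turned with the probe set. Averaging every probe set of a gene, dim ones included, COL1A1 had a log2 fold of -0.19, FGFR2 of -0.64 and PTPN1 of -0.053. Without _x_at and _s_at probe sets FGFR2 had -0.67. Over the 12 alternatives the count of receptor tyrosine kinases past the threshold ran from 1 to 5 higher and from 2 to 9 lower, in place of 4 and 5, that of the MET and MST1R route from 0 to 3 higher and from 0 to 5 lower, in place of 2 and 2, and that of DDR ligands and partners from 4 to 11 higher, in place of 9. No paired analysis was possible because each group has 1 array. The cause of these changes was not tested.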

Other observations

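DDR1 is represented by 4 probe sets whose annotation lists DDR1 together with the microRNA gene MIR4640, which lies inside the DDR1 gene in RefSeq. These probe sets cannot be given to one symbol by that annotation and were left out of all counts. In HCC4006 they read 4642, 3568, 4555 and 4403, and in HCC4006ER, in the same order, 5306, 4155, 4719 and 4904. All 4 were higher on the latter, with log2 folds of 0.05 to 0.22, and none reached 1.5-fold.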
